A study of Mus musculus with 5 samples.

Results

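The regions described here are the peaks of β-catenin around Pou5f1, Sox2 and Nanog, the genes of the 3 core transcription factors of pluripotency, in mouse embryonic stem cells. Members were all peaks whose summit, the position of highest tag density, lay in 3 windows in mm9 coordinates. The windows ran from 35.59 to 35.70 Mb of chromosome 17 for Pou5f1, from 34.45 to 34.70 Mb of chromosome 3 for Sox2 and from 122.55 to 122.72 Mb of chromosome 6 for Nanog. They held 46 of the 44750 peaks in the 3 deposited lists: 19 of 16069 from CHIR99021-treated cells captured with anti-FLAG, 19 of 15947 from CHIR99021-treated cells captured with streptavidin, and 8 of 12734 from DMSO-treated cells captured with streptavidin. The study used ChIP-seq, which sequences the DNA bound to a captured protein. All cells were of the V6.5 line with a Ctnnb1-Biotin-3xFLAG knock-in and the BirA enzyme, which attaches biotin to the tag, and Ctnnb1 is the gene of β-catenin. Cultures held serum, LIF and feeder cells from DR4 mice, and were enriched for stem cells by letting other cells attach. CHIR99021, an inhibitor of the kinase GSK3, was given at 3 µM by the treatment labels and 3 mM by the extraction text, for 16 hours by the protocol and for 24 hours by the series text, and DMSO was the vehicle. Each group was 1 library, so no difference below has a replicate error or a test, and intervals cover counting error only. A ChIP from cells with BirA and no tag was not analysed here.

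β-Catenin is the transcriptional effector of the canonical Wnt pathway. GSK3 marks it for destruction, and when GSK3 is inhibited it accumulates, enters the nucleus and binds DNA through TCF/LEF partners, of which Tcf7l1 is a repressor in embryonic stem cells. Pou5f1 encodes OCT4, a POU-domain factor, and Sox2 encodes an HMG-box factor that binds beside OCT4 on composite sites. Nanog encodes a homeodomain factor that stabilises self-renewal. The 3 factors bind one another's enhancers, and these enhancers lie near the genes as well as far from them.

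The sequences just before the starts of the 3 genes are shown so that the OCT and SOX letters, through which this circuit is read, can be looked for in each. They are from RefSeq, build GRCm38.p6, plus strand, 250 bases up to the annotated start, and no mm9 sequence was used here. Capitals mark matches to TTTGCAT (OCT) or ACAATG (SOX) on either strand.
Pou5f1, chr17:35505782-35506031: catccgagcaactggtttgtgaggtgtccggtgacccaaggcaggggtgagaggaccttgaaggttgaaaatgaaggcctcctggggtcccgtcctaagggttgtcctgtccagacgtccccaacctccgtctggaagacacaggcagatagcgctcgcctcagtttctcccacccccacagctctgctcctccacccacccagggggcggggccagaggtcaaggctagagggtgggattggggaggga
Sox2, chr3:34649745-34649994: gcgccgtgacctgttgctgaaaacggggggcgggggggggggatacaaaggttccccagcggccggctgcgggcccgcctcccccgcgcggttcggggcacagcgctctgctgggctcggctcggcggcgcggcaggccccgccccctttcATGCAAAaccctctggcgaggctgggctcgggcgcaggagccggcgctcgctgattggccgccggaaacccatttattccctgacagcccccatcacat
Nanog, chr6:122707239-122707488: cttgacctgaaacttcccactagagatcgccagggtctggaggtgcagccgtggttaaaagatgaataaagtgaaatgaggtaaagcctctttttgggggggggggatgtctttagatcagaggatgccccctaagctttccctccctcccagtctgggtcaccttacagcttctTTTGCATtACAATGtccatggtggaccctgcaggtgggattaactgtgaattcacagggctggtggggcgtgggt
In the Nanog promoter the OCT letters ran from base 75 to base 69 before the start and the SOX letters from base 67 to base 62, with 1 base between them. The Sox2 promoter held the OCT letters on the minus strand, from base 99 to base 93 before the start. The printed Pou5f1 sequence held neither, while the second annotated Pou5f1 promoter held ACAATG from base 158 to base 153 before its start. The second Nanog promoter overlaps the first and held the same 2 matches. Over the 32851 promoters of the table, 4.12% held TTTGCAT and 10.7% held ACAATG, whose other strand reads CATTGT. The longer octamer ATGCAAAT, whose other strand contains TTTGCAT, was in 1.60% of all promoters. The TCF/LEF core CTTTGA, and CTTTGAT which contains it, were in 13.8% and 3.21%. None of the last 3 strings was in the printed sequences or in the second annotated promoters of Pou5f1 and Nanog. These GRCm38.p6 positions cannot be set against the mm9 peaks. Whether a peak covers a promoter, or lies nearer to a neighbouring gene, was therefore not determined. In the order of RefSeq protein-coding genes the neighbours were H2-Q10 and Tcf19 for Pou5f1, Dnajc19 and Atp11b for Sox2, and Dppa3 and Slc2a3 for Nanog, with Gdf3 beyond Dppa3.

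Both captures found β-catenin peaks in all 3 windows of CHIR99021-treated cells, whereas the DMSO list had peaks at Sox2 and Nanog but none at Pou5f1. In the anti-FLAG list 6 peaks lay at Pou5f1, 6 at Sox2 and 7 at Nanog, and in the CHIR99021 streptavidin list there were 2, 8 and 9. The DMSO list had 0, 5 and 3. At its whole-list rate of 4.95 peaks per Mb, a count of 0 in the 110 kb of the Pou5f1 window is ordinary. The windows make up 0.0206% of the span covered by peaks and held 0.118% of anti-FLAG peaks, 0.119% of CHIR99021 streptavidin peaks and 0.0628% of DMSO peaks. Peak density relative to the whole list was 8.73 at Pou5f1, 3.84 at Sox2 and 6.59 at Nanog by anti-FLAG. It was 2.93, 5.16 and 8.54 by CHIR99021 streptavidin, and 0, 4.04 and 3.56 in the DMSO list. The windows were drawn with peaks of these lists known, so their density is a description. Of the 19 anti-FLAG peaks, 15 had at least 1 bp in common with a CHIR99021 streptavidin peak (78.9%, exact binomial interval 54.4 to 93.9%), against 57.6% of the whole list. In the other direction it was also 15 of 19, against 57.8%. The background shares lie within the interval, so at this number of peaks the windows could not be told from the lists. The 15 pairs form 15 shared regions: 2 at Pou5f1, 6 at Sox2 and 7 at Nanog. When windows of the same widths were laid end to end over the chromosomes other than Y, as many shared anti-FLAG peaks were present in 8.11% of them for Pou5f1, 1.01% for Sox2 and 0.199% for Nanog. Most such windows held none at the widths used for Pou5f1 (72.6%), Nanog (62.2%) and Sox2 (51.4%). As the windows of the 3 genes were drawn with peaks known, these shares too are a description and not a test.

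**Figure D1:**
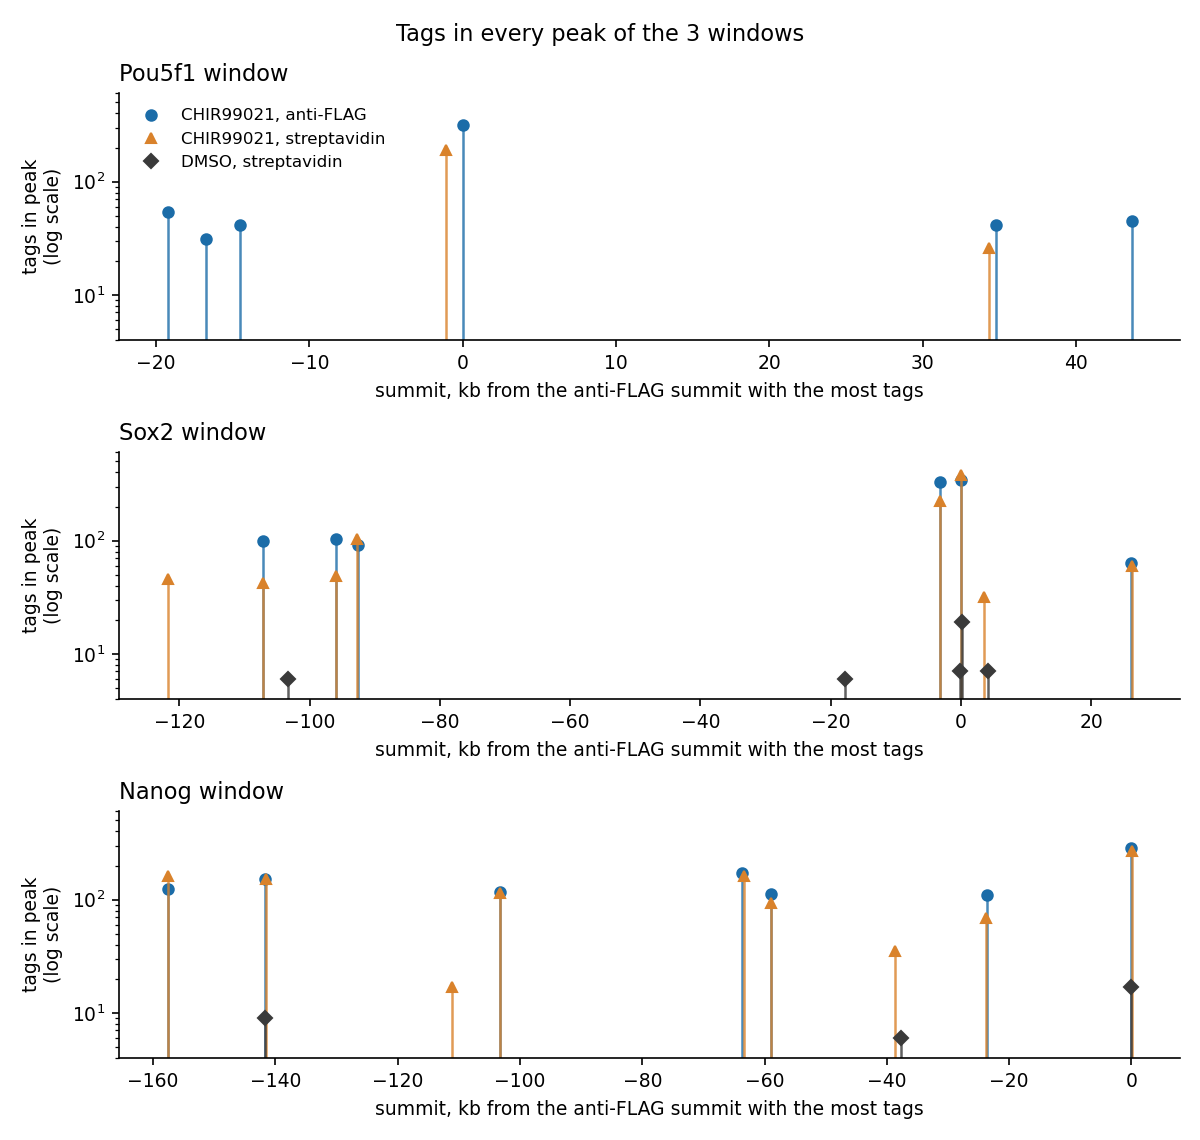
Tags in each peak (log scale) against the position of its summit, in kb from the anti-FLAG summit with the most tags in that window; circles are CHIR99021 anti-FLAG, triangles CHIR99021 streptavidin and diamonds DMSO streptavidin, 1 library each. The Pou5f1 window has 1 dominant site, the Sox2 window has groups of sites at either side of a gap of 89.3 kb, and the Nanog window has 7 shared sites along its length; DMSO tag numbers are from a library of unknown depth.

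At Pou5f1 a single region held most of the tags. It lay at chr17:35640355-35643165 and had 314 tags by anti-FLAG (interval 280.2 to 351) and 190 by streptavidin (164 to 219). Its fold enrichment over the local background, the ratio that the peak caller MACS gives each peak, was 16.76 by anti-FLAG and 10.82 by streptavidin. By p score, which is 10 times −log10 of the MACS p-value, the anti-FLAG peak stood at rank 505 and the streptavidin peak at rank 888 of their lists. This region took 59.7% of the 526 anti-FLAG tags in the window's peaks (55.4 to 63.9%) and 88.0% of the 216 streptavidin tags (82.9 to 92.0%). The other shared region, chr17:35676136-35677093, was weak in both captures, with 41 and 26 tags and fold enrichments of 5.33 and 7.91. The remaining 4 peaks were found by anti-FLAG only and were weaker still in p score. They had 31 to 54 tags, fold enrichments of 4.67 to 5.88 and p scores of 50.86 to 64.9, near the cutoff of 50. Of these, 3 stood side by side, between chr17:35622001 and chr17:35627932. Of all anti-FLAG peaks, 68.4% to 97.2% scored at or above these 4. At an FDR of at most 1%, which 64.8% of anti-FLAG and 55.4% of CHIR99021 streptavidin peaks met, the window kept 2 of its 6 anti-FLAG peaks and both streptavidin peaks, the same 2 shared regions. No DMSO peak was called in the window, and the nearest lay 84301 bp from the dominant anti-FLAG peak. Since the depth of that library is unknown, no upper limit on binding can be given.

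At Sox2 the strongest binding lay in a pair of adjoining regions, chr3:34654813-34657507 and chr3:34658068-34661010, whose anti-FLAG summits were 3.23 kb apart. The second is the strongest region of the 3 windows. It had 340 anti-FLAG tags (305 to 378) at a fold enrichment of 31.16 and 376 streptavidin tags (339 to 416) at 44.56. It stood at rank 125 of the anti-FLAG list and rank 59 of the streptavidin list by p score. The first had 328 and 225 tags, with fold enrichments of 18.91 and 19.37. The pair took 65.1% of the anti-FLAG tags in the window's peaks (62.1 to 68.0%) and 64.4% of the streptavidin tags (61.2 to 67.5%). Sox2 is known to depend on a distant downstream enhancer cluster in embryonic stem cells, and whether this pair lies in it was not determined. A second group of 3 shared regions lay 89.3 kb lower in coordinate. These were chr3:34551820-34553501 with 99 anti-FLAG and 42 streptavidin tags, chr3:34562635-34564891 with 103 and 49, and chr3:34566811-34568163 with 92 and 103. All 3 had fewer tags than either region of the pair. The sixth shared region, chr3:34685753-34686888, had few tags at high enrichment. It held 64 and 60 tags and fold enrichments of 16.73 and 22.76, above those of the group of 3. The 2 peaks of streptavidin alone, at chr3:34537897-34539103 and chr3:34663221-34664207, had 46 and 32 tags at fold enrichments of 6.95 and 5.56.

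At Nanog binding was spread over 7 shared regions rather than held by 1 or 2. From low to high coordinate, anti-FLAG tags were 124, 153, 116, 171, 112, 109 and 285, and streptavidin tags were 161, 153, 114, 163, 94, 69 and 267. Every one of the 7 anti-FLAG peaks was above the list's median of 39 tags, and 6 of them were in the top 10% by tags. By p score only 2 were, and the 7 peaks had a median length of 1881 bp, against 859 bp in the list. The largest, chr6:122713577-122717602, took 26.6% of the anti-FLAG tags in the window's peaks (24.0 to 29.4%) and 24.9% of the streptavidin tags (22.3 to 27.6%). Both intervals lie below those of the leading regions at Pou5f1 and Sox2. It had 17.7 anti-FLAG and 22.4 streptavidin tags per 1000000 unique tags, and fold enrichments of 14.54 and 16.31. The region of highest fold enrichment was a shorter one, chr6:122574290-122575875, at 20.12 by anti-FLAG and 22.4 by streptavidin. By anti-FLAG the fourth, chr6:122651710-122654356, had the most tags after the largest, yet a fold enrichment of 4.80, against 10.55 by streptavidin. The fifth, chr6:122656621-122658032, lay 4.73 kb from it by anti-FLAG summits and had 9.72 and 14.16. The other regions were chr6:122557061-122560432, chr6:122612214-122614467 and chr6:122691706-122693995, with fold enrichments of 7.29 to 11.54 by anti-FLAG and 6.15 to 13.00 by streptavidin. The 2 peaks of streptavidin alone had 17 and 35 tags. The edge of the window cut off a further region: 612 bp beyond it by anti-FLAG summit, peaks of 106 anti-FLAG, 90 CHIR99021 streptavidin and 7 DMSO tags stood at chr6:122719938-122721229. The last summits inside were those of the largest region.

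**Figure D2:**
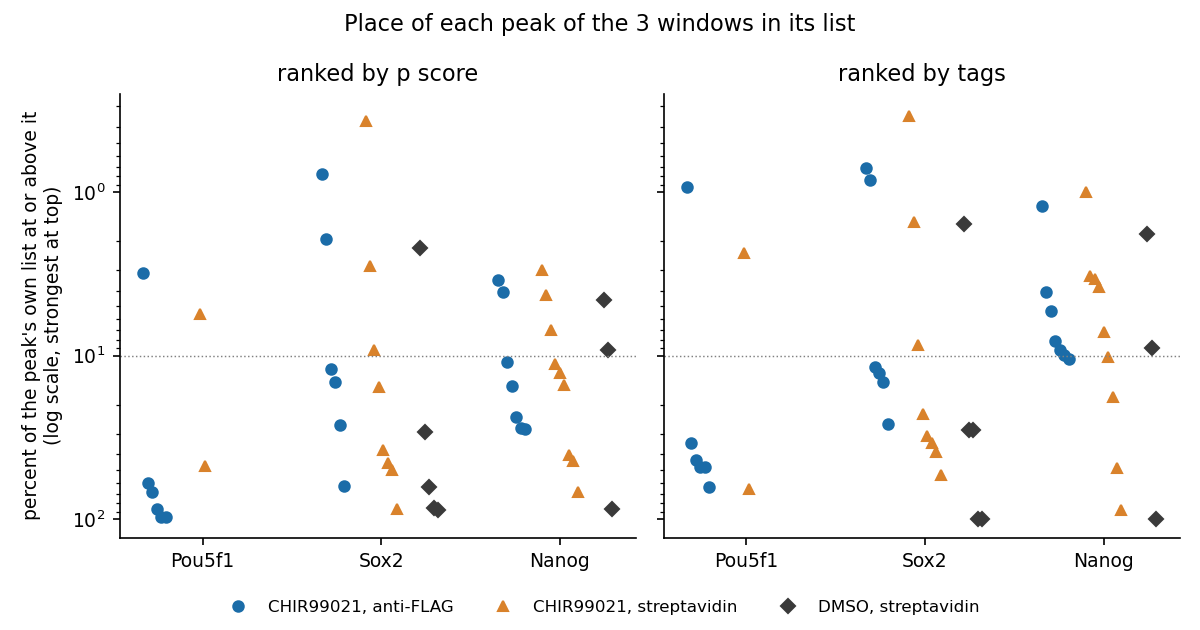
Percent of a peak's own list that stands at or above it (log scale, strongest at the top), by p score in the left panel and by tags in the right, for each peak of the 3 windows; the dotted line marks 10%. By p score 5 anti-FLAG, 7 CHIR99021 streptavidin and 3 DMSO peaks lie in the top 10% of their lists, and by tags 9, 9 and 3 do; the Pou5f1 window has 1 such peak in each CHIR99021 list.

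The place of these peaks within their lists differed with the measure, as the plot of list places shows. By p score 5 of 19 anti-FLAG and 7 of 19 CHIR99021 streptavidin peaks were in the top 10%, and by tags 9 of 19 were in either list. The leading Sox2 region was in the top 0.778% of anti-FLAG and the top 0.370% of streptavidin peaks by p score. The leading Pou5f1 region was in the top 3.14% and 5.57%, and the leading Nanog region by tags in the top 4.08% and 3.01%. By median, peaks with a partner in the other capture were stronger than those without. The 15 paired anti-FLAG peaks had a median of 116 tags and a median p score of 264, and the 4 unpaired ones had 43 tags and 52.8. For streptavidin the medians were 114 tags and 293 with a partner, and 33.5 tags and 75.4 without. The ranges overlapped, with 41 to 340 tags against 31 to 54 by anti-FLAG and 26 to 376 against 17 to 46 by streptavidin. All 4 unpaired anti-FLAG peaks lay at Pou5f1, so for anti-FLAG partner and window were not separate. No such split of the whole lists is given here. A p score of at least 100 was reached by 13 anti-FLAG and 12 streptavidin peaks, against 42.2% and 38.9% of the lists. Only 1 of the 13 was at Pou5f1, with 5 at Sox2 and 7 at Nanog.

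The tags of both captures were compared per 1000000 unique tags, since the anti-FLAG library had 16100920 unique tags and the CHIR99021 streptavidin library 11934863. Summed over each window's peaks, anti-FLAG gave 32.7 and streptavidin 18.1 tags per 1000000 at Pou5f1, a ratio of 1.81 (interval 1.54 to 2.12). At Sox2 they gave 63.7 and 78.2, a ratio of 0.815 (0.745 to 0.892), and at Nanog 66.5 and 89.9, a ratio of 0.739 (0.679 to 0.805). Over all 9255 overlapping pairs of the lists the median ratio was 0.875. The Pou5f1 sum leaned to anti-FLAG partly through the 4 peaks that streptavidin lacked, and over its shared regions alone the ratio was 1.22. Their anti-FLAG peaks were also the longer, and per kb of peak the ratios of the 2 regions were 0.904 and 0.948, so the direction at Pou5f1 depended on the lengths called. Among the 15 shared regions the ratio ran from 0.571 to 1.75, and 13 lay within the 5th to 95th percentile of all pairs, 0.511 to 1.48. The 2 outside were the first regions of the Sox2 group of 3, with 1.75 (1.21 to 2.57) and 1.56 (1.10 to 2.24). Their neighbour at chr3:34566811-34568163 had 0.662 (0.494 to 0.886), and its interval does not meet theirs. In both of the high regions the anti-FLAG peak was the longer, with 1682 against 1258 bp and 2257 against 928 bp. Per kb of peak the ratio was 1.31 in the first, 0.641 in the second and 0.739 in their neighbour. In the second region its direction therefore depended on the lengths called too, and per kb that region stood below the neighbour. All 15 shared regions were within the 5th to 95th percentile of all pairs per kb, 0.630 to 1.37, where the median was 0.924.

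**Figure D3:**
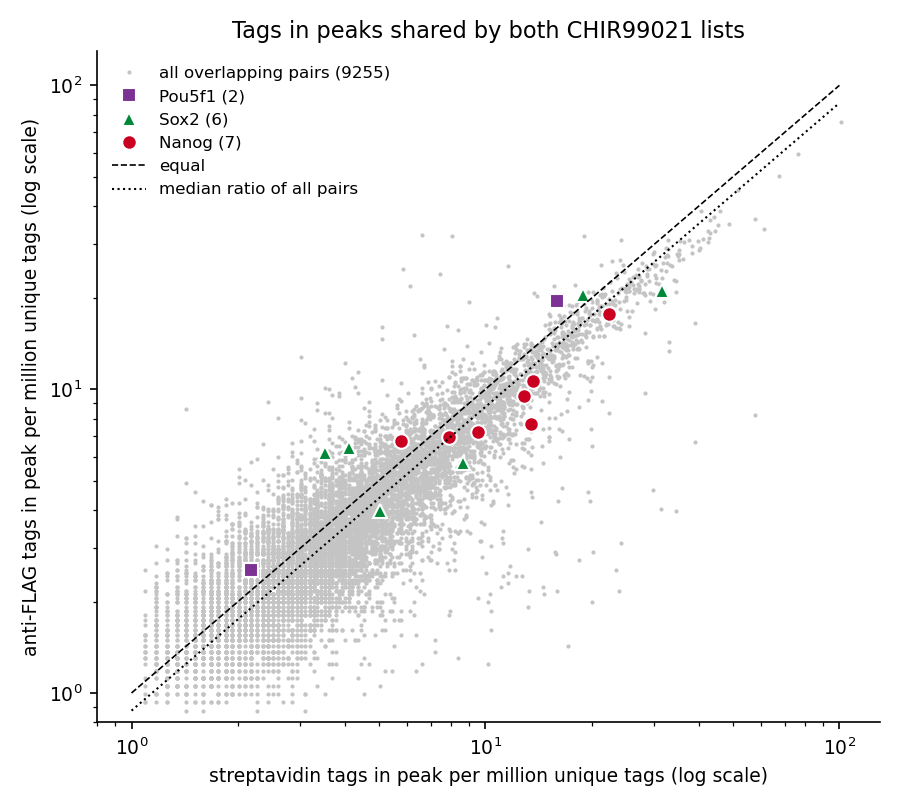
Anti-FLAG against CHIR99021 streptavidin tags in overlapping peaks, each per 1000000 unique tags of its library (both axes log scale); grey points are all 9255 pairs, coloured symbols the 15 pairs of the 3 windows, and lines mark equal values and the median ratio. The coloured symbols lie within the grey cloud, with 2 Sox2 pairs toward its upper side at ratios of 1.75 and 1.56, exceeded by 1.98% and 3.67% of all pairs.

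Summits of both captures coincided closely at Sox2 and Nanog and stood apart at Pou5f1. At Sox2 the streptavidin summit lay 7 to 75 bp from the anti-FLAG summit in the 6 shared regions, with a median of 46.5 bp. At Nanog the distance was 6 to 288 bp with a median of 18 bp, and 6 of the 7 were within 100 bp. The exception was the fourth region. Its fold enrichment was the higher by streptavidin, as it was in 12 of the 15 shared regions. Over all pairs the median was 42 bp, and 79.8% were within 100 bp. In the dominant Pou5f1 region the anti-FLAG summit was at chr17:35642065 and the streptavidin summit at chr17:35640996, 1069 bp lower in coordinate. Only 1.04% of all pairs were farther apart, and among the 281 pairs with both peaks of at least 2000 bp it was 4.98%. The deposited tables give 1 summit per peak, so whether the region holds more than 1 site was not determined. In the weak Pou5f1 region the distance was 475 bp, and 4.25% of pairs were farther apart. Among the 3368 pairs with both peaks under 1000 bp, which includes this pair, it was 0.683%. These length classes were chosen after the distances were seen. The Pou5f1 distances rest on 2 regions, 1 of them with 41 and 26 tags.

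**Figure D4:**
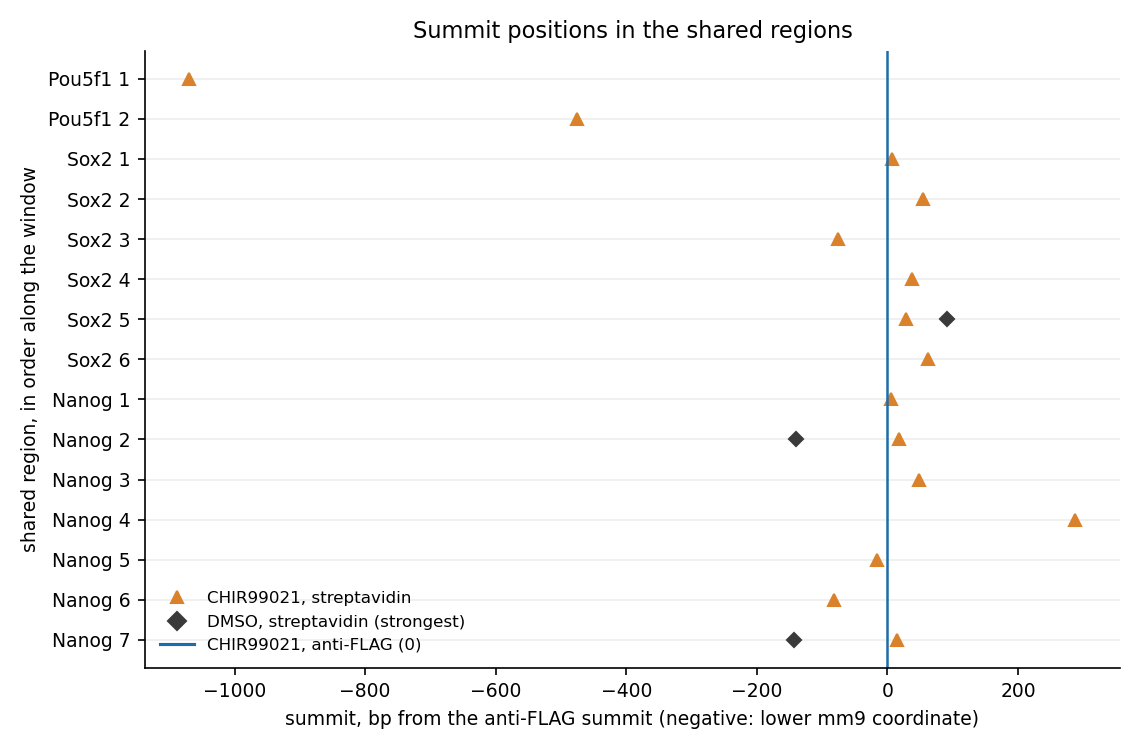
Distance in bp from the anti-FLAG summit (vertical line at 0) to the CHIR99021 streptavidin summit (triangles) and to the summit of the DMSO peak with the most tags (diamonds) in each shared region, numbered along its window. All 6 Sox2 regions and 6 of 7 Nanog regions have both CHIR99021 summits within 100 bp, the Pou5f1 regions have them 1069 and 475 bp apart, and the 3 DMSO summits lie 91 to 143 bp from the anti-FLAG summit.

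Without GSK3 inhibition the DMSO list marked 3 of the 15 shared regions, among them the strongest at Sox2 and the largest at Nanog. At chr3:34658068-34661010 there were 2 DMSO peaks with 7 and 19 tags, the larger at rank 281 of its list by p score. The summit of the larger peak lay 91 bp from the anti-FLAG summit. At chr6:122713577-122717602 a DMSO peak of 17 tags, at rank 583, had its summit 143 bp from that of anti-FLAG. At chr6:122574290-122575875, the Nanog region of highest fold enrichment, a DMSO peak of 9 tags stood at rank 1181 and 140 bp away. The DMSO summits lay 62 to 158 bp from the streptavidin summits. The FDRs of the DMSO peaks of 19, 17 and 9 tags were 17.44%, 12.31% and 8.3%. The DMSO peaks of the windows outside CHIR99021 peaks had lower ones, 3.16 to 4.45%. These 3 regions are 15.8% of the 19 peaks of each CHIR99021 list (interval 3.38 to 39.6%), against 8.24% of all anti-FLAG and 8.38% of all streptavidin peaks. Of all anti-FLAG peaks with a streptavidin partner, 12.6% held a DMSO peak, against 3 of 15 here. Both list shares lie within the interval, so this count could not be told from the background.

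The other DMSO peaks of the windows were at the minimum of the list or next to it. Of the 8, 4 lay in a CHIR99021 peak (50.0%, interval 15.7 to 84.3%), against 15.0% of the list. Both DMSO peaks of at least 10 tags did, against 71.3% of such peaks in the list. The contrast of 50.0% with 15.0% is a description and not a test. Of the 4 peaks inside, 2 were adjoining calls in 1 Sox2 region, with 7 and 19 tags, so they were not independent. The windows, drawn with peaks known, also held anti-FLAG and CHIR99021 streptavidin peaks at 5.74 and 5.78 times their list densities. The 15.0% makes no allowance for that. The 4 DMSO peaks outside CHIR99021 peaks had 6 or 7 tags, and 6 tags is the smallest number in the list, held by 71.3% of its peaks. Of these, chr3:34664222-34664281 began 15 bp past the end of a peak of streptavidin alone, and chr6:122678542-122678619 began 318 bp past the end of another. The DMSO table gives no depth, and its fragment length as estimated by MACS was 30 bp, close to the tag size of 25 bp. In the CHIR99021 lists this length was 185 and 214 bp. The tags, lengths and fold enrichments of the DMSO list therefore cannot be set against theirs as sizes of binding. The labels give streptavidin as its capture, and the ChIP alignment named in the header of its table says Biotin, while the run itself was named for FLAG.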

How the data were processed

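Peak tables of 3 ChIP libraries were used, and the 2 input libraries entered only through the authors' peak calls. Per the file headers, the authors ran MACS on alignments in ELAND format, each ChIP library against its input, at a p-value cutoff of 1.00e-05. The sources used here give no version for it. Per the submitters' processing notes, coordinates are of mm9. Per the file headers, the deposited columns are a tag count, the fold ratio over local background, the p score and an FDR in percent. The length and summit columns of the deposited tables are in bp. Per the file headers the CHIR99021 libraries had 16100920 and 11934863 unique tags and shared 1 input of 17758366, and the DMSO table gives no totals. The fragment length was estimated per library.

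Peaks were assigned to windows by summit, and peaks sharing at least 1 bp were partners, the nearest summit deciding where there were several. Tag counts carry exact Poisson intervals, and shares and ratios exact (Clopper-Pearson) ones, at 95%. They cover counting error within a library only, and may be too narrow even for that, since PCR reads are not independent molecules. The text names all regions of both CHIR99021 lists, or of a CHIR99021 and the DMSO list, and the peak with the most tags per list and window; other coordinates given, such as those of peaks from 1 capture, were chosen after seeing them. The windows, members and lists were chosen with earlier results of these data known. The overlap code, not the shares, was tested on simulated data. Software was matplotlib 3.10.9, scipy 1.17.1, pandas 2.3.3, numpy 2.4.6 and Python 3.11.15.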

Additional observations from a re-analysis of the deposited data

How the results depend on the processing

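The 19 anti-FLAG, 19 CHIR99021 streptavidin and 8 DMSO peaks became 13, 12 and 1 at a p score of at least 100. They became 8, 11 and 8 at a fold of at least 10, where the medians of the whole lists were 8.13, 8.56 and 25.81. When the FDR had to be 1% or less they became 14, 17 and 0, and the share of the whole DMSO list meeting this was not computed. This limit also removed the strongest anti-FLAG peak at Sox2, whose FDR was 2.4% at a p score of 1658. Of anti-FLAG peaks 78.9% had a streptavidin partner, with a range of 63.2% with summits within 200 bp to 100% at the FDR limit. Except for DMSO peaks of at least 10 tags, whole-list shares with a partner were computed for the main setting only. The shares at other settings therefore cannot be read as traits of the windows. The share with a DMSO peak, 15.8% in either CHIR99021 list, was 0% with 50% reciprocal overlap, which short DMSO peaks can hardly meet, and 0% at the FDR limit. It was higher at a fold of at least 10, where fewer CHIR99021 peaks enter, with 37.5% of anti-FLAG and 27.3% of streptavidin peaks. With summits within 1000 bp it was 26.3% for streptavidin. The share of DMSO peaks in a CHIR99021 peak, 50.0%, was 0% with reciprocal overlap. It was 100% at a p score of 100, where 1 peak was left, and 100% with at least 10 tags, a setting added after seeing the data that left 2. At the FDR limit no DMSO peak was left for this share. The tag ratio of anti-FLAG to streptavidin went from 1.81 to 1.22 at Pou5f1 with paired peaks only. Per 1000000 tags in peaks it went from 0.815 to 0.952 at Sox2 and from 0.739 to 0.863 at Nanog. Assignment by any base changed 1 total only, that of CHIR99021 streptavidin, from 19 to 20. The choice of partner among several left the median summit distances as they were. Density against the chromosome alone stayed within the exact Poisson intervals of the main values. Widening the windows by 50 kb took the totals to 23 anti-FLAG, 22 CHIR99021 streptavidin and 12 DMSO peaks. In the DMSO list, peaks went from 0 to 1 at Pou5f1 and from 3 to 6 at Nanog. No paired analysis was possible because there was only a single library in every group. Not knowing the depth of the DMSO library limits what can be said where no DMSO peak was called.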

Other observations

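On some sides the nearest peaks lay close to a window. Besides the region just past the Nanog edge, the next anti-FLAG summit above the Pou5f1 window was 12556 bp away with 25 tags, and the next CHIR99021 streptavidin summit below the Sox2 window 17681 bp away with 15 tags. Other sides had long gaps. Past the upper edge of the Sox2 window the next anti-FLAG summit was 332704 bp away and the next CHIR99021 streptavidin summit 332677 bp away. They belonged to 1 shared region, at chr3:35032106-35033222, with 132 and 98 tags. Its fold enrichments of 41.07 and 37.29 compare with 31.16 and 44.56 in the strongest Sox2 region. Below the lower edge of the Pou5f1 window the next anti-FLAG summit was 182891 bp away, and below that of the Nanog window it was 113166 bp away, with 66 and 32 tags. These peaks were named after their values were seen.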
